A study of Mus musculus with 32 samples.

Results

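RNA of WT mouse embryos was compared between the late and the early 2-cell stage, the interval in which the embryonic genome becomes fully active, in 14 single-embryo libraries (6 late, 8 early) out of the 32 libraries of a study of p53 in early development. The genes described are the 9319 of 54532 in the authors' table that reached an FPKM of 1 in at least 6 of these 14 libraries. FPKM is the number of reads per kilobase of gene, scaled to the read total of a library. In this table the length was the whole genomic span of a gene, introns included, so levels can be compared between genes only per base of span.

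The late embryos were collected 48 hours after injection of hCG, the hormone that triggers ovulation, and the early embryos at 28 to 32 hours, 2 to 3 hours after cytokinesis. Both WT groups carried the floxed Trp53 allele (Trp53 flox/flox), in which exons 2 to 10 are flanked but not removed, and both came from mice of a mixed Bl6/C57 background and were cultured in KSOM medium after harvest as zygotes. The study set them against Trp53 MZ-KO embryos of the same stages, born to KO mothers and KO fathers in which the Ddx4::Cre driver, active in germ cells, had removed the flanked exons, and against eggs at metaphase II. The number of females behind each group is not given in the labels, so each p-value measures only the spread between single embryos.

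A mouse egg is transcriptionally silent and loads the embryo with stored RNA and protein. After fertilisation this maternal RNA is cleared in steps while the embryonic genome is switched on, first in a weak and promiscuous minor wave and then, in the late 2-cell embryo, in the major wave. The minor wave includes Dux and the Zscan4 cluster, and the major wave supplies the genes for making ribosomes and proteins that the embryo needs from then on.

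The WT late libraries were scaled to 16534100 to 23994600 reads and the WT early libraries to 7213340 to 20757700, worked out from the value that 1 read has in low genes. A level of at least FPKM 1 was reached by 7989 to 9417 genes in late and by 6965 to 7990 in early embryos. Across the 9319 genes, Spearman correlations between libraries were 0.871 to 0.913 within the late group and 0.789 to 0.939 within the early group, and only 0.041 to 0.291 between a late and an early library, given here as a description of these libraries. Early embryo 3 stood apart from the other 7, and without it the correlations within the early group were 0.877 to 0.939. To place it on a scale whose direction came from MZ-KO embryos alone, a pair of gene sets was taken out of the same 9319 genes, 1706 higher and 843 lower by at least 2 log2 units in MZ-KO late than in MZ-KO early embryos. The mean log2 level of the higher set was 4.45 to 4.60 in the WT late embryos, 1.85 in early embryo 3 and 1.12 to 1.45 in the other early embryos. The mean log2 level of the lower set was 1.07 to 1.71 in the WT late embryos, 4.06 in early embryo 3 and 4.27 to 4.45 in the other early embryos. On both sets early embryo 3 thus lay on the late side of its group and far closer to its group than to the late embryos. On the lower set MZ-KO late embryos 1 and 6 were at 1.97 and 1.90, above the other MZ-KO late embryos at 1.21 to 1.45.

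**Figure D1:**
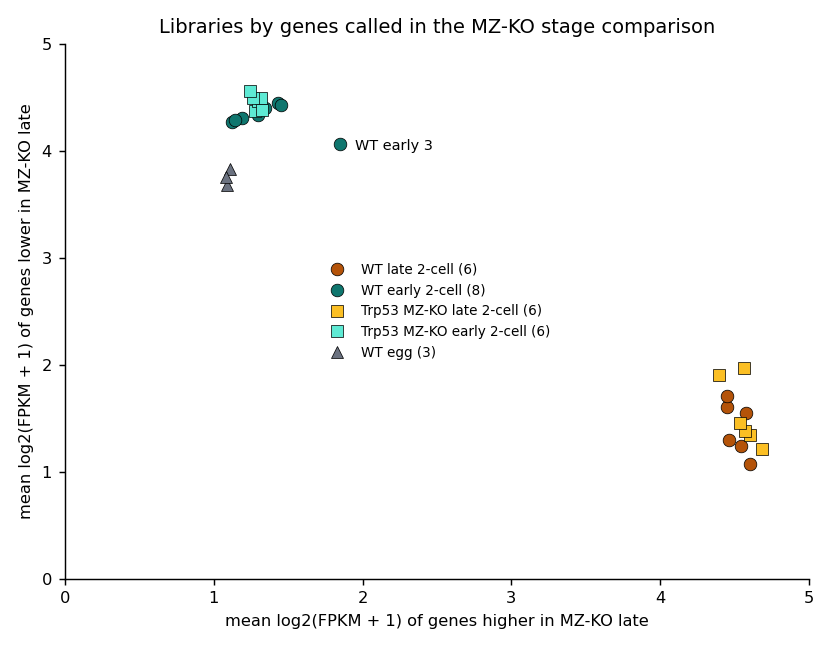
Mean log2(FPKM + 1) of the 843 genes lower (y axis) against the mean of the 1706 genes higher (x axis) in MZ-KO late than in MZ-KO early embryos, 1 point per library, with circles for WT and squares for MZ-KO 2-cell embryos and triangles for WT eggs. The sets were chosen by the MZ-KO difference among genes that had passed the WT filter, so the squares are separated by choice; WT early embryo 3 lies at 1.85 on the x axis, right of the other WT early embryos at 1.12 to 1.45.

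Most of the detected transcriptome differed between the stages. On log2(FPKM + 1), limma called 7923 of 9319 genes at a Benjamini-Hochberg adjusted p below 0.05, which is 85.0%, with 4346 (46.6%) higher and 3577 (38.4%) lower in late embryos. The ranges of the late and early libraries did not overlap in 6044 genes (64.9%). Rises of 2 or more on the log2 scale were called in 1932 genes (20.7%) and falls of 2 or more in 981 (10.5%). These shares are the background against which each gene group below has to be read. Without early embryo 3 the calls were 7936, with 4364 higher and 3572 lower.

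The sum of all FPKM values was 214530 to 268559 in late and 118131 to 148978 in early libraries, and the groups did not overlap. When each library was scaled to the same sum, the median difference over all genes moved to -0.36, against 0.26 as deposited, and the calls became 3474 higher and 4475 lower. Under quantile normalization they were 3833 higher and 4128 lower. Thus 54.9% of calls were rises as deposited and 43.7% after scaling to equal sums, and small differences have no fixed direction. Each library is one embryo brought to a common depth, so a change in a gene's share of the RNA and a change in the RNA per embryo cannot be told apart.

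A gene that was almost absent in one stage had to differ in order to pass the expression filter. There were 1243 genes below FPKM 1 in all 8 early embryos, all called higher, and 1272 below FPKM 1 in all 6 late embryos, all called lower, and neither count is a result. In the class of 5275 genes that reached FPKM 1 in no fewer than 3 late and 3 early libraries, 2342 were higher, 1641 lower and 1292 not called, with a median of 0.26. After scaling to equal sums the same class had 1587 higher and 2480 lower genes and a median of -0.36.

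**Figure D2:**
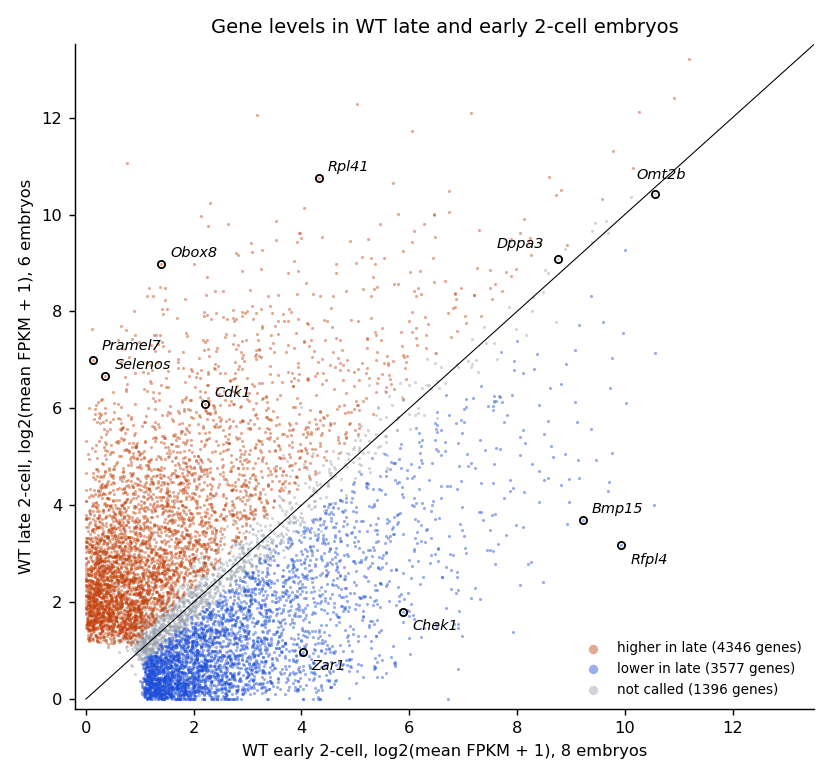
Level in WT late (y axis) against WT early 2-cell embryos (x axis), each as log2(mean FPKM + 1), with 1 point for each of the 9319 genes coloured by its call and the line of equal level. Genes such as Obox8, Pramel7 and Rpl41 lie far above the line, Rfpl4 and Bmp15 far below it, and Dppa3 and Omt2b near it.

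The 15 largest called rises were taken among protein-coding genes of at least 500 bp, without a clone name, whose stages did not overlap. Lack of overlap is thus by choice in these genes and in the 15 largest falls below. The rises were differences of 5.94 to 7.99. Of these 15 genes 12 were below FPKM 1 in all 3 WT eggs, against 3161 of all 9319 tested genes. Of the 15, Pramel7 and Selenos were below FPKM 1 in all 8 early embryos, so that they could pass the filter only through the late ones. Trim43b, Trim43a, Spic, Zfp707, Obox8, Obox6 and Rpl10l reached FPKM 1 in fewer than 6 early embryos. They too would not have passed the filter without the late ones. The 15 included homeobox, PRAME and TRIM family genes that are known from the cleavage embryo, metallothioneins, ribosomal proteins and an ETS family transcription factor. In the paragraphs that follow, 3 levels given for a group are its lowest, median and highest FPKM, and differences are late minus early on the log2(FPKM + 1) scale.

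Trim43b and Trim43a are members of a TRIM gene family expressed in preimplantation embryos. Trim43b (chr9:89084624-89092835, minus strand, build mm10) had 131, 164 and 203 FPKM in late embryos, against 0.0160, 0.346 and 1.59 in early embryos and 0.0490, 0.104 and 0.122 in eggs, a difference of 6.86 ± 0.20 (SE) with an adjusted p of 3.48e-13. Trim43a had 129.6, 164 and 215 FPKM in late embryos and 0.0610, 0.396 and 5.43 in early embryos, where the highest value was that of early embryo 3 and the next was 0.753. As the choice of these genes required, every late embryo lay above every early embryo in both.

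Spic, which encodes an ETS family transcription factor related to PU.1, had 106, 146 and 203 FPKM in late and 0, 0.257 and 3.42 in early embryos and was below 0.1 in all eggs. Selenos, for a selenoprotein of the endoplasmic reticulum that takes part in removing misfolded proteins, had 81.2, 101 and 112 FPKM in late and 0.0390, 0.193 and 0.813 in early embryos. No early embryo reached FPKM 1 for Selenos, and the late embryos lay close together. Znhit3, a zinc finger protein needed for assembling small nucleolar ribonucleoproteins, reached 165, 331 and 432 FPKM in late and 1.00, 2.46 and 14.4 in early embryos. Aprt, the enzyme that salvages adenine, had 116, 157 and 227 FPKM in late and 0.731, 1.88 and 2.64 in early embryos. Zfp707, a zinc finger gene, had 62.8, 92.1 and 167 FPKM in late and 0.0770, 0.386 and 2.11 in early embryos and was listed at 0 in all 3 eggs.

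The metallothioneins Mt1 and Mt2, small proteins that bind zinc and other metals, both lie on chromosome 8. Mt1 had 818, 930.1 and 1160.0 FPKM in late and 1.11, 4.74 and 55.1 in early embryos, and Mt2 had 552, 687 and 968 in late and 1.99, 7.12 and 41.1 in early embryos. In early embryos both genes were highest in embryo 3, where Mt1 was at 55.1 and the next embryo at 7.65. The groups did not overlap with that embryo included, which the choice of these genes required. Rpl10l, a retrogene copy of a ribosomal protein gene that is best known from testis, was at 58.1, 166 and 223 FPKM in late and 0, 1.08 and 3.13 in early embryos.

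The 15 largest falls, chosen under the same conditions, were differences of -4.79 to -6.83. All 15 genes were at FPKM 1 or more in all 3 eggs, against 4822 of all 9319 tested genes. Several have known roles in the oocyte. Bmp15 is an oocyte growth factor, Dazl an RNA-binding protein that controls translation in germ cells, Eif4e1b an oocyte form of the cap-binding protein, Nlrp4f a member of the oocyte Nlrp family, and Obox2 and Obox7 oocyte homeobox genes. Bmp15 had 3.69, 12.3 and 18.9 FPKM in late embryos, against 377, 611 and 688 in early embryos and 106, 159.9 and 235 in eggs, a difference of -5.62 ± 0.26 (SE) with an adjusted p of 1.92e-11. Dazl had 0.144, 0.703 and 1.21 FPKM in late, 34.6, 48.3 and 70.3 in early embryos and 85.8, 107 and 118 in eggs. Every late embryo lay below every early one in both genes, as their choice required. The early embryos lay above the eggs for Bmp15 and below them for Dazl.

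By group means, given without a test, 8 of the set of 15 were higher in eggs than in early embryos. Among these the egg and early ranges overlapped for Rfpl4, Bcl2l10, Oas1e, Obox7 and Rraga, and among the rest for Oas1c and Ifitm6. Rgs2, a regulator of G protein signalling, had 1.16, 1.53 and 2.45 FPKM in late and 68.04, 239 and 375 in early embryos, with eggs at 489, 559 and 888. Eif4e1b had 0.217, 0.997 and 1.67 FPKM in late and 48.4, 61.02 and 87.4 in early embryos, with eggs lower at 11.3, 12.1 and 13.2. The set thus holds genes lower in every early embryo than in every egg, namely Rgs2, Dazl and Obox2. It also holds genes higher in every early embryo than in every egg, such as Bmp15 and Eif4e1b. Rraga, a GTPase of the nutrient sensing pathway, Gng3, a G protein subunit, Hsd3b7, an enzyme of bile acid synthesis, Ifitm6, and the oligoadenylate synthetase genes Oas1c and Oas1e also belong to it, with differences of -4.79 to -5.09. Oas1c and Oas1e lie on chromosome 5 and overlap other annotated genes, so reads can be shared between them.

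Windows around the start sites of 6 of these genes are printed to show the letters on which the counts of promoter motifs rest. The windows are from RefSeq on build GRCm38.p6, run from 250 bases before to 50 bases after the start, 5′ to 3′ on the gene's strand, and were picked after the motif matches had been seen. Capitals mark every match, on either strand, to any of the motifs searched. The motif of basal factors near the start was searched as TATAAA, that of nuclear factor Y as CCAAT and that of Sp1 as GGGCGG, called the GC box here. ETS factors were searched as CCGGAAGT, homeodomains of the Obox and Otx type as GGATTA and the core of the Dux motif as GATTNNATC. Nr5a2 was searched as TCAAGGTCA and Klf factors as GGGTGTGG, and a base may lie in more than 1 motif. Alppl2 is at chr1:87089879-87090178, minus strand, Trim43a at chr9:88580641-88580940, plus strand, Mt1 at chr8:94178839-94179138, plus strand and Rpl41 at chr10:128549119-128549418, minus strand, all genes that rose. Rfpl4 is at chr7:5116862-5117161, minus strand, and Bmp15 at chrX:6320675-6320974, minus strand, both genes that fell.
Alppl2: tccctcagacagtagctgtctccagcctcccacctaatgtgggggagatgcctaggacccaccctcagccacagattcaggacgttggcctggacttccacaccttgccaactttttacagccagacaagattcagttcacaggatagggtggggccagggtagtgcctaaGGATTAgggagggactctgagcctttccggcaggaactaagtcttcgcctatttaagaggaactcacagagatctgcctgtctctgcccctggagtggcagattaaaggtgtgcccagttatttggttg
Trim43a: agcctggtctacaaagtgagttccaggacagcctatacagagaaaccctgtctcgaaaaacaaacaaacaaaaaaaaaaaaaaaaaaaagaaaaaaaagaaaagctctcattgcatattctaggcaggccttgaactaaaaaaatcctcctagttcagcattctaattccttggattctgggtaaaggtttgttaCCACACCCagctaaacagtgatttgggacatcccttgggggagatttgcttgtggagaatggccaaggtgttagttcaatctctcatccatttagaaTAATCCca
Mt1: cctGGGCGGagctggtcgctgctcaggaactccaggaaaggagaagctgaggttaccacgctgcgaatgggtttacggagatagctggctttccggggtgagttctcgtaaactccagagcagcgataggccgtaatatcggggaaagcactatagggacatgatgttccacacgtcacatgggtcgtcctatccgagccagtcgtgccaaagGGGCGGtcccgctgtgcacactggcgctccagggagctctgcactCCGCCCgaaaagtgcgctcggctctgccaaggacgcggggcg
Rpl41: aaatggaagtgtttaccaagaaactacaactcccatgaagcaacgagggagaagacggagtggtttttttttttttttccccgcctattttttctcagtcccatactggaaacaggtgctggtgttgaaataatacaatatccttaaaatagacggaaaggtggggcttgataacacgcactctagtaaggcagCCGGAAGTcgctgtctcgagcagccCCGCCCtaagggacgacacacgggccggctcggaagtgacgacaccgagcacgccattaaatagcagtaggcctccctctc
Rfpl4: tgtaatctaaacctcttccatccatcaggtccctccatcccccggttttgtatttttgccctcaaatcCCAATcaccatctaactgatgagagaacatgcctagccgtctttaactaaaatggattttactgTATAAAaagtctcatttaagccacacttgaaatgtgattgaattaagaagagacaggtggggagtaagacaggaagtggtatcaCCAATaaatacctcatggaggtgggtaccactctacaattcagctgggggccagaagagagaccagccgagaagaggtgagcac
Bmp15: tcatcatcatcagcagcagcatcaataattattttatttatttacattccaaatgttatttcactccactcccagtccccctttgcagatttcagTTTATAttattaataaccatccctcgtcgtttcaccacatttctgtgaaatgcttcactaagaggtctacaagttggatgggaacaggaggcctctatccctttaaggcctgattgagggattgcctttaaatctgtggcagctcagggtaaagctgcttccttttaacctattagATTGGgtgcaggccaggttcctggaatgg

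The Alppl2 window holds a GGATTA 79 bases before the start and the Trim43a window holds the same motif on the other strand at base 43 after it. The Mt1 window holds 3 GC boxes, and the Rpl41 window 1 ETS motif and 1 GC box. The Rfpl4 window holds a TATAAA 118 bases before the start, and the Bmp15 window holds one on the other strand, 155 bases before it. A match is only a string of letters and says nothing of a bound factor.

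Over the protein-coding genes with a window (4650 of 5515 tested, 84.3%), GGATTA stood in 9.23% of the 758 windows of genes that rose by 2 or more, in 4.83% of the 414 windows of genes that fell by 2 or more, in 6.22% of all tested genes and in 7.16% of the 27025 genes with a window in the table. The GC box stood in 63.9% of the windows of risers, 53.9% of fallers and 64.0% of all tested genes, against 35.9% over the whole table, and the ETS motif in 12.9%, 9.18%, 10.9% and 4.00% of these sets. The TATAAA motif stood in 8.71% of the windows of risers and 8.21% of fallers (14.2% over the whole table), CCAAT in 41.7% and 39.6% (37.9%), the Klf motif in 4.35% and 5.80% (3.57%), the Dux core in 0.92% and 1.45% (1.67%), and the Nr5a2 motif in 0.53% and 0.24% (0.41%). These shares are descriptions with no test. The first match, by symbol alone over 6149 tested protein-coding genes, covered 77.8% of them, below the floor of 80%, and the set was then narrowed to symbols that are not clone names, with synonyms matched and chromosome 18 left out. In the first match the shares of GGATTA were 9.89% of risers, 5.00% of fallers and 6.73% of all tested, and those of the Nr5a2 motif 1.14%, 0.23% and 0.42%.

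Some genes were on in one stage only. By the rule of below FPKM 0.5 in every library of one stage and at 5 or more in every library of the other, 78 genes were held in late embryos only (54 protein-coding) and 23 in early embryos only (12 protein-coding). These genes were chosen by these values, which are given without a test. Of the 78, 77 were below FPKM 1 in all 3 eggs, and of the 23, 19 were at FPKM 1 or more in all 3 eggs. Over all 9319 tested genes 3161 were below FPKM 1 in all 3 eggs and 4822 were at 1 or more.

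Pramel7 and Pramel6 are PRAME family genes of the early embryo on chromosome 2. Pramel7 had 72.9, 121 and 198 FPKM in late and 0, 0.0355 and 0.318 in early embryos, and Pramel6 had 27.9, 62.9 and 95.4 in late and 0, 0 and 0.283 in early embryos. Ctsc, a lysosomal protease, had 36.1, 59.4 and 82.5 FPKM in late and 0.008, 0.145 and 0.207 in early embryos. Timd2, a cell surface receptor for ferritin, had 16.6, 37.6 and 47.02 FPKM in late and 0, 0.0490 and 0.300 in early embryos. Utp23, which acts in making the small ribosomal subunit, Pramel4, the purine synthesis enzyme Ppat and the alkaline phosphatase Alpi had late medians of 33.4, 22.2, 20.3 and 18.7 FPKM and early maxima of 0.262, 0.277, 0.449 and 0.240. The early values of Pramel6, Timd2 and Alpi were highest in embryo 3.

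Among genes held in early embryos only, the annotated olfactory receptor gene Olfr976 had 0.0490, 0.184 and 0.329 FPKM in late, 15.5, 23.5 and 28.1 in early embryos and 5.81, 7.06 and 8.67 in eggs. Dnajb4, a co-chaperone, had 0.101, 0.190 and 0.424 FPKM in late and 12.1, 20.4 and 25.9 in early embryos. Stat6, a transcription factor of cytokine signalling, had 0, 0.124 and 0.366 FPKM in late, 5.59, 9.68 and 12.2 in early embryos and 1.33, 3.89 and 5.19 in eggs. Ehf, an ETS family transcription factor of epithelia, Mitd1, which acts at the end of cell division, and Rtl8b, Zfp616 and Stard3nl had late maxima of 0.266 to 0.488 and early minima of 5.10 to 5.72. Of these 8 genes, 4 had a higher mean in eggs than in early embryos.

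Ribosomal protein genes that passed the filter rose almost without exception. Of the large ribosomal subunit 36 of 46 genes were tested, with 33 higher and 0 lower. Of the small subunit 29 of 33 genes were tested, with 28 higher and 0 lower. The median differences were 2.22 and 2.84, against 0.26 over all genes. The lists, 39 in all, were drawn up with earlier results of these data known, and their counts are set beside the background of 46.6% higher and 38.4% lower. Both include genes that could pass the filter only through the stage where they were high. For example, Psmb5, Ctsa, Folr1, Slc5a6, Sesn2, Kdm5b, Xpa and Tyms were below FPKM 1 in all early embryos. Nlrp4g, Nlrp4a, Pabpc1l, Pabpn1l, Hus1, Pfdn4, Sdha and Glrx were below FPKM 1 in all late embryos. Among ribosomal protein genes, Rplp1, Rpl37a and Rps3 reached FPKM 1 in fewer than 6 early embryos and would not have passed without the late ones. Summed over its members, the small subunit list was at 728 to 1044 FPKM in late and 56.5 to 125 in early embryos, and the large subunit list at 1900 to 2981 in late and 54.4 to 174 in early embryos. With the scaling to equal sums 1 gene of each subunit was called lower.

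Rps3, a protein of the small subunit, had 55.9, 75.7 and 126 FPKM in late and 0.380, 1.25 and 4.14 in early embryos, a difference of 5.16 ± 0.28 (SE) with an adjusted p of 1.07e-10. Rps15 differed by 4.52. In both genes the late and early embryos were fully apart.

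Of the large subunit, Rpl41 had 1313, 1646 and 2326 FPKM in late and 0.930, 10.5 and 88.2 in early embryos, with 88.2 in early embryo 3 and 12.97 in the next. Rplp1 had 34.5, 40.3 and 52.5 FPKM in late and 0.117, 0.291 and 1.58 in early embryos, Rplp0 differed by 4.16 and Rpl37a by 4.32. Of the members not called, Rpl15 had 8.95, 10.6 and 15.2 FPKM in late and 11.2, 14.6 and 20.99 in early embryos (-0.38, adjusted p = 0.062), and it was called lower without early embryo 3 (-0.43) and without late embryo 3 or 4 (-0.45 each). Rpl29 had 0.242, 20.95 and 40.7 FPKM in late and 2.55, 5.65 and 7.72 in early embryos (1.35, adjusted p = 0.0505), with the lowest value in late embryo 3, without which its difference was 2.07 and called. Rps27l had 29.3, 41.3 and 59.6 FPKM in late and 28.4, 45.6 and 61.5 in early embryos and was not called as deposited. It was called lower after scaling to equal sums (-0.98). Ribosomal protein genes have many processed pseudogenes that can share their reads, so single values are uncertain.

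**Figure D3:**
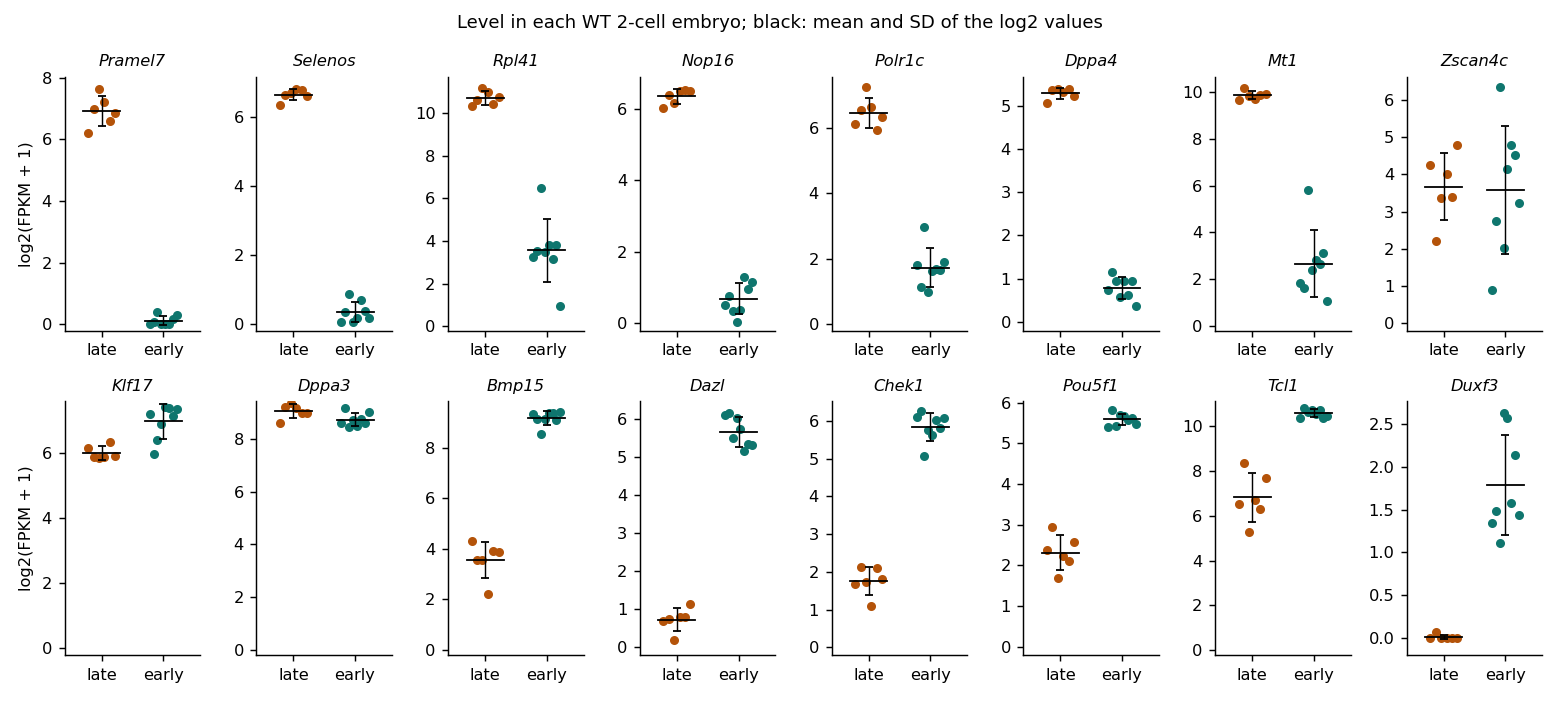
Level of 16 genes in each embryo as log2(FPKM + 1), with late embryos left and early embryos right in each panel, 1 point per embryo, and the mean and SD of the log2 values in black. The late and early embryos do not overlap in 13 panels, while they overlap for Zscan4c, Klf17 and Dppa3. Pramel7, Selenos, Rpl41, Mt1, Bmp15 and Dazl are among genes chosen for lack of overlap.

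Genes that make and process ribosomal RNA rose with the ribosomal proteins. Of 44 tested nucleolar and ribosome biogenesis genes 41 were higher and 0 lower, with a median of 2.06, and of 27 tested subunits and factors of RNA polymerase I and III all 27 were higher, with a median of 1.79. The summed level of the nucleolar list was 1538 to 1945 FPKM in late and 216 to 287 in early embryos. After scaling to equal sums 37 nucleolar genes were higher and 2 lower, and 25 polymerase genes higher and 0 lower.

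Nop16, a factor of the large subunit's assembly, had 63.8, 85.5 and 91.4 FPKM in late and 0.0330, 0.569 and 1.46 in early embryos and was listed at 0 in the 3 eggs, a difference of 5.66 ± 0.20 (SE) with an adjusted p of 1.23e-12. Nhp2, a core protein of the particles that turn uridine into pseudouridine in ribosomal RNA, had 147, 189.5 and 229.7 FPKM in late and 6.63, 7.57 and 12.5 in early embryos. Grwd1 differed by 4.26. Nop16, Nhp2 and Grwd1 did not overlap between the stages. Mybbp1a, below FPKM 1 in every early embryo, had 11.9, 16.4 and 27.4 FPKM in late and 0, 0.132 and 0.723 in early embryos. Of those not called, Noc4l differed by 0.40 (adjusted p = 0.0698), Mphosph10 by -0.03 and Rrp1b by -0.25. After scaling to equal sums Mphosph10 (-0.79) and Rrp1b (-0.78) were called lower.

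Polr1c, a subunit that RNA polymerases I and III share, had 60.02, 86.3 and 151 FPKM in late and 0.979, 2.19 and 6.80 in early embryos, a difference of 4.75 ± 0.28 (SE). Cd3eap and Polr1e, which form a dimer in polymerase I, differed by 4.37 and 3.83. Polr2h, shared by all the nuclear polymerases, had 25, 31.03 and 51.8 FPKM in late and 0.959, 1.94 and 3.68 in early embryos.

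Translation factors followed the same direction, with 32 of 41 tested genes higher and 5 lower and a median of 1.42. Eif3c, a subunit of the initiation factor that binds the small ribosomal subunit, had 20.3, 26.2 and 32.2 FPKM in late and 0.748, 1.00 and 1.39 in early embryos (3.73 ± 0.14 (SE)), and Eif3g 42.6, 46.3 and 59.99 in late and 1.76, 4.86 and 6.99 in early embryos. Among those that fell were Eif2b1, a subunit of the exchange factor that recharges eIF2, with 36.4, 47.7 and 55.2 FPKM in late and 77.4, 90.98 and 102 in early embryos (-0.93), and Eif1ax (-0.95).

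The RNA polymerase II machinery moved in both directions, as did all tested genes (46.6% higher and 38.4% lower). Of 47 tested subunits, general factors and elongation factors 31 were higher (66.0%) and 12 lower (25.5%), with a median of 0.87. After scaling to equal sums 20 were higher and 16 lower. Cdk9, the kinase that releases paused polymerase, had 22.2, 27.6 and 42.3 FPKM in late and 0.783, 1.14 and 3.19 in early embryos (3.66 ± 0.22 (SE), adjusted p = 2.82e-10). Supt4a, of the elongation factor DSIF, and Gtf2f1, of TFIIF, rose by 3.22 and 2.91. By contrast Gtf2b, which recruits the polymerase to the promoter, had 3.09, 6.55 and 10.4 FPKM in late, 17.9, 30.5 and 41.9 in early embryos and 38.8, 45.1 and 53.03 in eggs. Gtf2a2, of TFIIA, had 1.51, 2.50 and 3.20 FPKM in late and 15.8, 17.1 and 22.1 in early embryos, and the polymerase subunit Polr2g differed by -1.63. These 3 were high in eggs and fell without overlap between the stages.

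Of 44 tested core spliceosome genes 25 were higher and 7 lower, and the median of 0.58 became -0.02 after scaling to equal sums, with 20 higher and 18 lower. Snrpb, a core protein of the spliceosomal particles, had 19.1, 30.04 and 31.6 FPKM in late and 0.0840, 0.597 and 1.55 in early embryos. Rbm8a, of the exon junction complex, had 51.99, 58.6 and 71.4 in late and 1.98, 3.85 and 5.73 in early embryos. Lsm3 and Snrnp27 fell by 2.54 and 2.08, with 0.704, 1.01 and 1.68 FPKM in late and 9.27, 10.6 and 12.8 in early embryos for Lsm3.

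Maternal groups fell. Of 15 tested genes of the subcortical maternal complex, a protein assembly under the egg's surface, and of the oocyte Nlrp family 0 were higher and 14 lower, with a median of -2.82. Their summed level was 45.3 to 143 FPKM in late and 1028 to 1214 in early embryos. Nlrp4g had 0, 0.347 and 0.979 FPKM in late and 36.02, 45.3 and 62.4 in early embryos, and Zbed3, a protein of this complex, 10.1, 21.1 and 66.7 in late and 462, 561 and 703 in early embryos. Nlrp4a had 0.427, 0.615 and 0.997 FPKM in late and 21.8, 33.5 and 41.6 in early embryos. The member not called was Khdc3, with 0.396, 4.38 and 7.34 FPKM in late and 2.15, 3.02 and 4.97 in early embryos (-0.06, adjusted p = 0.888).

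Of 30 tested genes of the zona pellucida, of oocyte growth and of the meeting of egg and sperm 2 were higher and 24 lower, with a median of -3.06. The members that rose were Zp3 and Cd9. Zp3, a protein of the egg coat and a marker that defines the oocyte, had 10.97, 23.1 and 27.4 FPKM in late, 5.00, 6.93 and 8.96 in early embryos and 9.31, 13.2 and 16.4 in eggs, a difference of 1.42 ± 0.21 (SE) with an adjusted p of 1.34e-05. Cd9, a membrane protein needed for fusion with sperm and present in many later cells, had 3.31, 5.02 and 10.4 FPKM in late and 1.43, 2.13 and 3.54 in early embryos (1.08), ranges that overlap, and its call was lost after scaling to equal sums (adjusted p = 0.0849). Dppa3, Omt2b and Omt2a, all abundant, did not pass the test as deposited. Dppa3, also called Stella, a maternal factor that protects the maternal genome from loss of DNA methylation, had 391, 545 and 669 FPKM in late and 356, 409.8 and 580.2 in early embryos (0.32, adjusted p = 0.064). It was called higher without late embryo 1 (0.41) or early embryo 2 (0.38) or 8 (0.36), and lower after scaling to equal sums (-0.53). Omt2b had 796, 1136 and 2387 FPKM in late and 1257, 1569 and 1687 in early embryos and Omt2a 386, 681 and 1302 in late and 616, 850.3 and 959 in early embryos, and both were called lower after scaling to equal sums (-1.12 and -1.05).

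Genes that store maternal RNA and control its translation fell in 11 of 18 tested members and rose in 3 (median -1.13), and after scaling to equal sums 15 were lower and 1 higher. Zar1, which binds and stabilises RNA in the oocyte, had 0.207, 0.993 and 1.63 FPKM in late, 7.13, 14.9 and 28.1 in early embryos and 142, 190.1 and 225 in eggs, with every egg far above every 2-cell embryo. Pabpc1l, a poly(A)-binding protein of the oocyte, had 0, 0.0330 and 0.190 FPKM in late and 2.48, 4.02 and 5.82 in early embryos. Among the other members Ddx6, a helicase of RNA granules in many cells, had 1.14, 2.14 and 2.97 FPKM in late and 0.271, 0.408 and 0.808 in early embryos, and Ybx1, an RNA-binding protein, 11.7, 12.8 and 13.5 in late and 3.87, 6.69 and 7.94 in early embryos. The call of Ybx1 was lost after scaling to equal sums (0.13, adjusted p = 0.47).

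Of 38 tested RNA decay genes 19 were higher and 16 lower (50% and 42.1%), near the 46.6% and 38.4% over all genes. Their median of 0.29 became -0.23 after scaling to equal sums, with 13 higher and 18 lower. Factors of maternal RNA clearance were found among the rises and the falls. Btg4, which brings the deadenylase complex to maternal transcripts, had 1.81, 3.74 and 10.04 FPKM in late and 80.1, 96.2 and 128 in early embryos (-4.21 ± 0.24 (SE)), and Pabpn1l, a cytoplasmic poly(A)-binding protein of the oocyte and early embryo, 0, 0.763 and 0.844 in late and 7.97, 30.98 and 40.1 in early embryos. Ythdf2, which reads methylated adenosine and promotes decay, rose to 12.96, 15.1 and 22.2 FPKM in late embryos, against 0.943, 1.59 and 1.89 in early embryos. Exosc6, a subunit of the exosome, had 10.2, 24.4 and 42.6 in late and 0.0980, 0.483 and 1.24 in early embryos.

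**Figure D4:**
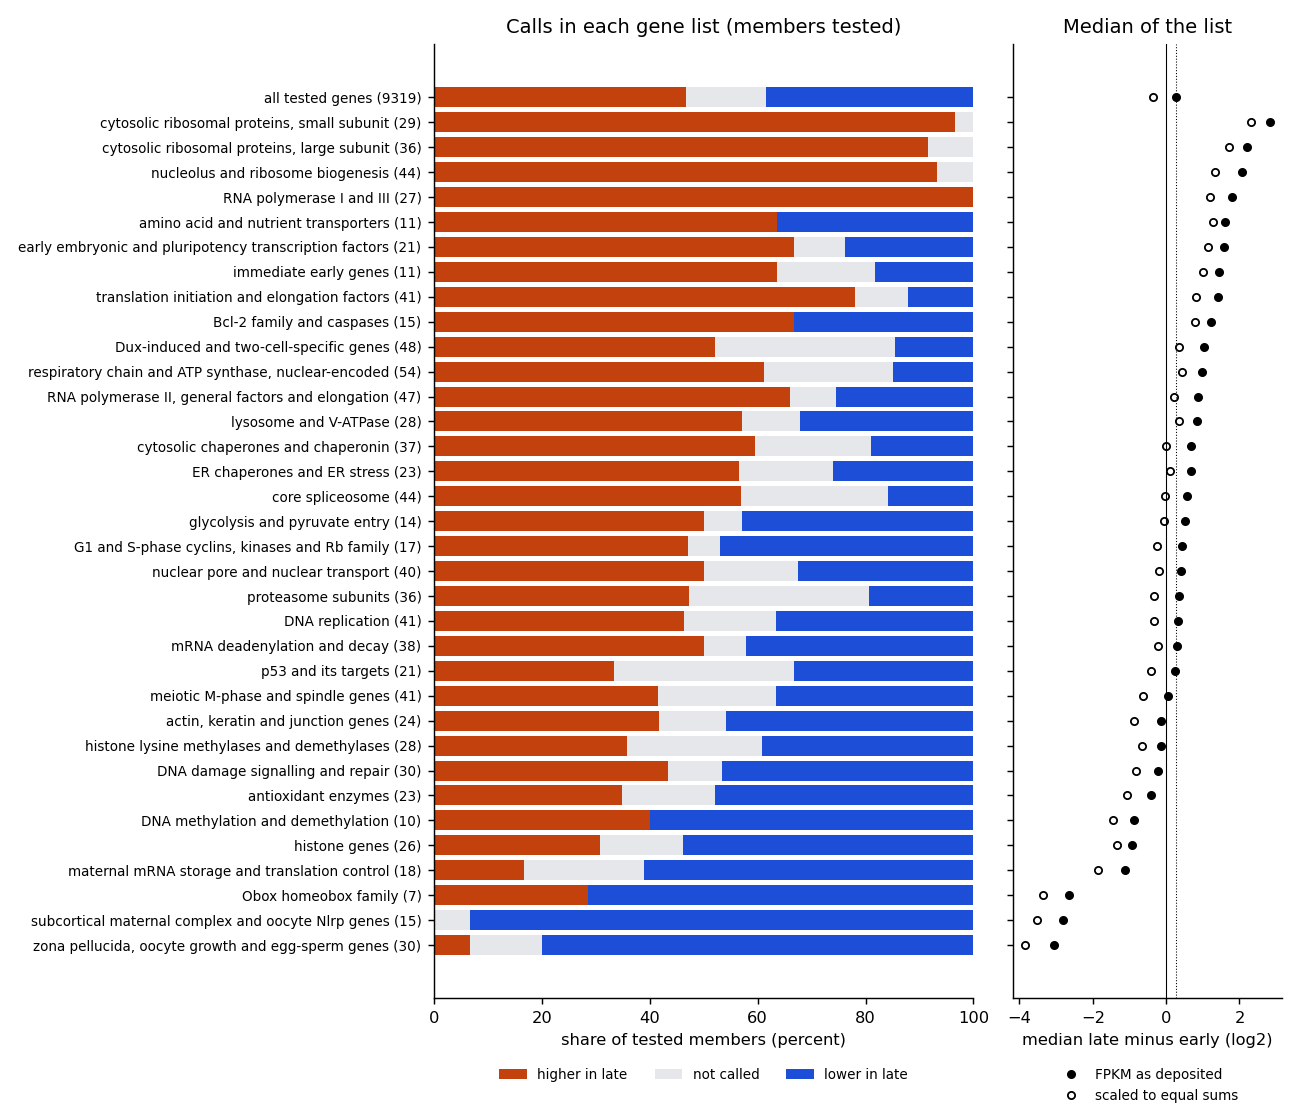
Share of tested members called higher, not called or called lower in WT late 2-cell embryos, for gene lists with at least 7 tested members (left panel, percent, members tested in brackets). The right panel gives the median late minus early difference on the log2 scale, as deposited (filled) and after scaling to equal sums (open). Ribosomal proteins, the nucleolus and RNA polymerases I and III stand at the top with medians of 1.79 to 2.84 and the maternal oocyte lists at the bottom with medians of -2.82 and -3.06, against 0.26 for all genes (dotted line).

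The Obox family, homeobox genes of the egg and early embryo, changed in every tested member. Of 7 tested members 2 were higher and 5 lower. None of the 7 overlapped between the stages, while ranges did not overlap in 64.9% of all tested genes. Obox6 had 149.6, 173 and 228 FPKM in late and 0.0400, 0.761 and 5.80 in early embryos, and Obox8 373, 516 and 631 in late and 0, 0.570 and 8.32 in early embryos, both near 0 in eggs. Obox5 had 11.1, 14.2 and 47.6 FPKM in late, 379, 489 and 654 in early embryos and 483, 502 and 640.3 in eggs (-4.64 ± 0.30 (SE)), and Obox1 2.31, 3.10 and 4.97 in late and 20.8, 24.1 and 31.3 in early embryos. The summed level of the family was 551 to 880 FPKM in late and 586 to 921 in early embryos, ranges that overlap. The copies are similar in sequence and lie in a cluster on chromosome 7, so reads may be assigned to the wrong copy.

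Duxf3, the annotated copy of Dux, was nearly silent in late embryos, with 0, 0 and 0.0460 FPKM against 1.15, 1.89 and 5.20 in early embryos. Of 48 tested genes known to be induced by Dux or specific to the 2-cell stage 25 were higher and 7 lower, with a median of 1.02. Ranges did not overlap in 16 of them (33.3%), a smaller share than the 64.9% over all tested genes. After scaling to equal sums 19 were higher and 11 lower. Tdpoz5 and Tdpoz4 are paralogous genes with TRAF and POZ domains. Tdpoz5 had 137, 246 and 306 FPKM in late and 0.360, 2.36 and 23.7 in early embryos, and Tdpoz4 had 55.3, 135 and 203 in late and 0, 2.84 and 9.78 in early embryos. Rfpl4b had 67.4, 223 and 332 in late and 0, 5.70 and 28.2 in early embryos, and Pramef12 fell by 1.86.

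The Zscan4 genes, which mark the 2-cell stage, were present in both stages with a wide spread. Zscan4c had 3.63, 12.4 and 26.7 FPKM in late, 0.851, 12.4 and 79.98 in early embryos and 0.114, 0.210 and 0.227 in eggs, and Zscan4d had 7.25, 19.5 and 34.2 in late, 3.00, 10.2 and 67.5 in early embryos and 0.297, 0.476 and 0.731 in eggs. Neither was called, with differences of 0.09 ± 0.70 (SE) and 0.39 ± 0.52 (SE) and adjusted p of 0.91 and 0.493. The highest early value of both genes was that of embryo 3, and the next were 26.4 for Zscan4c and 20.8 for Zscan4d, below the highest late values. Without early embryo 3 the differences were 0.48 for Zscan4c (adjusted p = 0.464) and 0.73 for Zscan4d (adjusted p = 0.105), still not called. Members of the Dux, Zscan4 and Tdpoz families share reads among copies.

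Transcription factors of the early embryo and of pluripotency changed in both directions, as did all tested genes (46.6% higher and 38.4% lower). Of 21 tested 14 were higher (66.7%) and 5 lower (23.8%), with a median of 1.57. Dppa2 and Dppa4 form a chromatin-binding pair. Dppa2 had 17.1, 21.6 and 33.7 FPKM in late and 2.05, 3.02 and 4.69 in early embryos, and Dppa4 had 32.5, 39.3 and 40.8 in late and 0.290, 0.796 and 1.22 in early embryos. Gabpa, an ETS factor that drives many housekeeping genes, had 12.6, 21.3 and 26.3 FPKM in late and 0.143, 0.262 and 0.552 in early embryos and was listed at 0 in the eggs, with no early embryo at FPKM 1. Dppa5a had 237, 330.0 and 469.6 FPKM in late and 6.89, 11.4 and 30.9 in early embryos. Dppa2, Dppa4 and Dppa5a rose without overlap.

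Of those that fell, Pou5f1, or Oct4, a core factor of pluripotency that is also stored in the egg, had 2.23, 3.95 and 6.64 FPKM in late, 41.5, 47.5 and 55.7 in early embryos and 27.3, 32.1 and 34.2 in eggs (-3.27 ± 0.17 (SE), adjusted p = 6.5e-11). Tcl1, a cofactor of the kinase Akt, had 37.6, 97.5 and 327 FPKM in late and 1317, 1514 and 1784 in early embryos. Klf17, a zinc finger factor of the early embryo, had 56.9, 58.7 and 80.8 FPKM in late and 61.4, 144 and 171 in early embryos, ranges that overlap (-0.97 ± 0.23 (SE)). Elf3, an epithelial ETS factor, had 0, 0.623 and 1.51 in late and 1.092, 3.33 and 5.85 in early embryos, also overlapping.

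Histones and their chaperones fell more often than they rose, with 8 of 26 tested genes higher and 14 lower (median -0.93). The oocyte linker histone H1foo had 1.29, 2.30 and 4.73 FPKM in late, 28.2, 40.01 and 76.8 in early embryos and 1062, 1120.0 and 1622 in eggs. The linker histone H1f0 had 0.647, 4.88 and 9.93 FPKM in late and 12.8, 22.98 and 36.6 in early embryos. Slbp, which binds the stem-loop of histone RNA, had 10.96, 13.04 and 15.9 FPKM in late and 80.4, 182 and 300.2 in early embryos (-3.69 ± 0.24 (SE)). The variants H2afz, found at promoters, and H2afx, phosphorylated at DNA breaks, rose instead. H2afz had 88.8, 112 and 146 FPKM in late and 1.82, 3.54 and 11.7 in early embryos, and H2afx 1.92, 8.21 and 11.4 in late and 0, 0.961 and 1.82 in early embryos. As background, libraries of this kind are primed on poly(A) tails, which most replication-dependent histone RNAs lack.

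Of 10 tested genes of DNA methylation and demethylation 4 were higher and 6 lower, and 2 and 6 after scaling to equal sums. Tet3, the oxidase that acts on the paternal genome after fertilisation, had 0.228, 0.452 and 0.90 FPKM in late, 3.13, 4.33 and 6.63 in early embryos and 10.9, 11.6 and 11.9 in eggs. Uhrf1, the partner of the maintenance methylase, had 0.396, 0.487 and 1.19 in late and 3.08, 5.65 and 6.92 in early embryos, and the cofactor Dnmt3l 0.207, 0.492 and 1.095 in late and 3.79, 4.74 and 5.98 in early embryos. Zfp57, which protects imprints, had 10.1, 13.3 and 17.4 in late and 50.98, 159 and 206 in early embryos. The stress-inducible members Gadd45a and Gadd45b rose, by 3.47 and 4.10. Among 28 tested histone lysine methylases and demethylases 10 were higher and 11 lower, and 8 and 17 after scaling to equal sums. Kdm5b, a demethylase of histone H3 lysine 4, had 6.34, 7.28 and 8.78 FPKM in late and 0.155, 0.251 and 0.391 in early embryos and Setd2, a methylase of lysine 36, 6.07, 6.47 and 8.35 in late and 0.787, 0.983 and 1.32 in early embryos, while the Polycomb genes Ezh2 and Eed fell by 1.21 and 1.72.

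Cell cycle groups were near the background of 46.6% higher and 38.4% lower over all genes. Of 41 tested M-phase and spindle genes 17 were higher and 15 lower, and the median of 0.06 became -0.62 after scaling to equal sums, with 9 higher and 22 lower, and -0.02 without early embryo 3. Cdk1, the kinase of mitosis, had 54.7, 65.4 and 84.7 FPKM in late and 2.57, 3.38 and 5.01 in early embryos (3.87 ± 0.15 (SE)), and Cdc20, an activator of the anaphase-promoting complex, 274, 304 and 427 in late and 21.7, 36.7 and 63.2 in early embryos. Wee2, the oocyte kinase that inhibits Cdk1, had 2.07, 4.26 and 6.98 FPKM in late and 35.4, 41.1 and 55.8 in early embryos, and Plk4, the kinase of centriole duplication, 1.27, 3.37 and 3.90 in late and 16.6, 23.5 and 28.4 in early embryos. Both of these fell without overlap.

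Of 17 tested G1 and S-phase regulators 8 were higher and 8 lower, and the median of 0.43 became -0.24 after scaling to equal sums and 0.68 without early embryo 3. Ccne1, a cyclin of entry into S phase, had 32.5, 52.6 and 60.6 FPKM in late and 0.149, 2.00 and 6.93 in early embryos, and its partner Cdk2 10.7, 13.9 and 19.96 in late and 0.573, 1.43 and 2.87 in early embryos. The repressive E2F factors E2f4 and E2f5 fell, with 1.40, 2.43 and 4.69 FPKM in late and 16.3, 20.5 and 25.8 in early embryos for E2f5. Of 41 tested replication genes 19 were higher and 15 lower, with a median of 0.32 that became -0.32 after scaling to equal sums, with 10 higher and 20 lower, and 0.20 without early embryo 3. Tyms, which makes thymidylate, had 4.12, 6.23 and 14.6 FPKM in late and 0.172, 0.366 and 0.577 in early embryos. Rpa2, of the single-strand binding complex, rose by 3.04, and Orc5, of the origin recognition complex, and Rfc3, of the clamp loader, fell by 2.22 and 2.42.

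Of 30 tested genes of DNA damage signalling and repair 13 were higher and 14 lower, and 10 and 17 after scaling to equal sums. Chek1, the checkpoint kinase of replication stress, had 1.14, 2.42 and 3.41 FPKM in late, 32.4, 59.9 and 75.6 in early embryos and 62.4, 69.4 and 71.9 in eggs (-4.08 ± 0.21 (SE), adjusted p = 4.22e-11), and Hus1, of the checkpoint clamp, 0.229, 0.712 and 0.936 in late and 4.09, 7.93 and 8.64 in early embryos. Xpa, a factor of excision repair, had 5.65, 6.04 and 8.37 FPKM in late and 0.0330, 0.0750 and 0.967 in early embryos, of which the highest was embryo 3 and the next 0.209.

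Proteasome genes changed in both directions. Of 36 tested genes 17 were higher (47.2%, against 46.6% over all genes) and 7 lower (19.4%, against 38.4%). The median of 0.36 became -0.33 after scaling to equal sums, with 14 higher and 15 lower. The catalytic subunit Psmb5 had 21.05, 25.7 and 31.2 FPKM in late and 0, 0.404 and 0.962 in early embryos, and Psmd7, of the regulatory particle, 30.5, 37.6 and 52.2 in late and 1.31, 2.24 and 3.11 in early embryos. Psma7, a structural subunit, had 4.22, 5.28 and 10.7 FPKM in late, 13.4, 36.5 and 73.4 in early embryos and 239, 310.5 and 319.9 in eggs, and the inhibitor Psmf1 0.151, 0.775 and 1.14 in late and 5.56, 7.30 and 8.81 in early embryos. Psmb5 was below FPKM 1 in every early embryo, so it could pass the filter only through the late ones. Psmd7 and Psma7, above FPKM 1 in all 14 libraries, differed in direction.

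Of 37 tested cytosolic chaperones 22 were higher and 7 lower (median 0.68), against 15 and 15 after scaling to equal sums. The constitutive chaperone Hspa8 had 20.2, 23.8 and 35.3 FPKM in late and 0.635, 1.27 and 1.80 in early embryos (3.60 ± 0.16 (SE)), and Hspb1 6.65, 20.7 and 51.5 in late and 0.293, 1.20 and 1.91 in early embryos. Pfdn4, a subunit of prefoldin, had 0.0480, 0.200 and 0.332 in late and 3.39, 7.43 and 9.55 in early embryos. Hsp90aa1 was not called as deposited, with 9.22, 21.9 and 27.6 in late and 7.76, 20.9 and 33.5 in early embryos. It was called lower after scaling to equal sums (-0.87). Of 23 tested genes of the endoplasmic reticulum 13 were higher and 6 lower, and 8 and 9 after scaling to equal sums. Hspa5, or BiP, its main chaperone, had 51.5, 76.1 and 182 FPKM in late and 7.82, 11.9 and 15.1 in early embryos, and P4hb, a disulfide isomerase, rose by 3.39. Derl3, of the degradation pathway, had 4.53, 10.9 and 19.6 in late, 54.8, 66.98 and 97.04 in early embryos and 2.45, 3.46 and 3.93 in eggs, and its early embryos lay above both.

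Of 54 tested nuclear-encoded genes of the respiratory chain and ATP synthase 33 were higher and 8 lower (median 0.99), and 26 and 14 after scaling to equal sums. Uqcrq, of complex III, had 18.5, 22.5 and 34.6 FPKM in late and 0.191, 2.13 and 3.44 in early embryos, and Atp5g1, of the ATP synthase ring, 13.5, 21.9 and 26.9 in late and 0.610, 1.58 and 3.42 in early embryos. Sdha, of complex II, had 0.288, 0.423 and 0.659 in late and 4.39, 6.81 and 11.5 in early embryos, and Ndufa10, of complex I, 0.390, 0.525 and 0.737 in late and 3.22, 5.33 and 6.58 in early embryos. The 15 mitochondrially encoded genes of the table were all listed at 0 in the 14 libraries, so the RNA of the mitochondrial genome is not measured by these values. Of 14 tested glycolysis genes 7 were higher and 6 lower (50% and 42.9%), near the 46.6% and 38.4% over all genes. Their median of 0.52 became -0.05 after scaling to equal sums.

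The list of nutrient transporters had 7 of 11 tested members higher and 4 lower (median 1.603), but its most abundant members were the metallothioneins Mt1 and Mt2, which bind metal rather than transport nutrients. Folr1, a folate receptor, had 42.5, 53.2 and 58.7 FPKM in late and 0.0830, 0.172 and 0.637 in early embryos and was listed at 0 in eggs. Slc5a6, a carrier of biotin and pantothenate, had 12.1, 15.2 and 20.2 in late and 0.0650, 0.239 and 0.758 in early embryos. Slc25a1, the mitochondrial citrate carrier, had 0, 0 and 2.22 in late and 5.46, 9.85 and 11.9 in early embryos, with 5 of 6 late embryos at or below 0.605.

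Lysosomal genes changed in both directions, as did all tested genes (46.6% higher and 38.4% lower). Of 28 tested members 16 were higher and 9 lower (median 0.85), and 14 and 12 after scaling to equal sums. The protease Ctsa had 39.3, 51.3 and 79.05 FPKM in late and 0, 0.0830 and 0.792 in early embryos. The proteases Ctsl and Ctsb rose, with 68.8, 148 and 157 FPKM in late and 0.484, 1.38 and 8.33 in early embryos for Ctsl, and 42.5, 56.8 and 65.4 in late and 0.509, 0.642 and 1.26 in early embryos for Ctsb. The proton pump subunits Atp6v1g1 and Atp6v1f fell, with 0.556, 1.66 and 2.65 FPKM in late, 13.1, 17.6 and 22.3 in early embryos and 0.608, 0.670 and 0.744 in eggs for Atp6v1g1, and 0.658, 1.22 and 1.80 in late and 9.82, 12.7 and 18.8 in early embryos for Atp6v1f. Of 40 tested nuclear pore and transport genes 20 were higher and 13 lower, with a median of 0.42 that became -0.19 after scaling to equal sums, with 16 higher and 18 lower. Of 24 tested actin, keratin and junction genes 10 were higher and 11 lower, and 7 and 13 after scaling to equal sums.

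Among Bcl-2 family members, caspases and their inhibitors 10 of 15 tested genes were higher and 5 lower (median 1.23). Mcl1, which protects cells from apoptosis, had 26.9, 29.03 and 33.1 FPKM in late and 0.198, 1.15 and 4.96 in early embryos (3.70 ± 0.26 (SE)). Bcl2l10, its relative stored in the oocyte, had 5.22, 14.3 and 26.9 in late and 1184, 1480.4 and 1799 in early embryos, Bcl2l1, or Bcl-x, 0.230, 0.407 and 1.45 in late and 1.69, 2.50 and 4.05 in early embryos, and the inhibitor of apoptosis Birc3 1.56, 2.73 and 3.22 in late and 18.99, 26.2 and 35.01 in early embryos. Protective members were thus found on both sides of the change.

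Of 21 tested genes of p53 and its targets 7 were higher, 7 lower and 7 not called, and the median of 0.26 became -0.42 after scaling to equal sums, with 5 higher and 10 lower. Trp53 itself had 0.557, 2.95 and 7.09 FPKM in late and 2.60, 6.29 and 9.29 in early embryos (-0.82 ± 0.35 (SE), adjusted p = 0.0383), ranges that overlap. Its call was lost, at -0.57 to -0.76, when late embryo 2, 3 or 4 or early embryo 1, 2, 4 or 5 was left out. Sesn2, which restrains growth signalling under stress, had 8.35, 13.1 and 29.1 FPKM in late and 0.155, 0.232 and 0.804 in early embryos, and Tigar, which lowers glycolytic flux, 16.2, 18.3 and 23.4 in late and 1.10, 1.47 and 1.99 in early embryos. Mdm4, an inhibitor of p53, had 7.83, 11.5 and 18.01 in late and 15.01, 34.3 and 48.6 in early embryos. Cdkn1a, or p21, the target best known for arresting the cycle, was not called (0.43, adjusted p = 0.342), with 1.22, 4.75 and 11.5 FPKM in late and 1.52, 2.79 and 13.99 in early embryos. The highest early value was that of embryo 3, without which the difference was 0.68 (adjusted p = 0.0759), also not called.

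Of 23 tested antioxidant enzymes 8 were higher and 11 lower, and 6 and 14 after scaling to equal sums. Gpx1, a glutathione peroxidase, had 76.8, 120.1 and 194 FPKM in late and 3.66, 10.9 and 70.9 in early embryos, where embryo 3 was highest and the next was at 18.7. Mgst3, a glutathione transferase, fell by 3.95, with 0.398, 0.600 and 1.14 FPKM in late and 16.7, 25.3 and 29.98 in early embryos. Glrx, a glutaredoxin, had 0.247, 0.703 and 0.947 FPKM in late and 9.02, 22.6 and 26.5 in early embryos. Of 11 tested immediate early genes 7 were higher (63.6%) and 2 lower (18.2%), against 46.6% and 38.4% over all genes. After scaling to equal sums 5 were higher and 2 lower. The stages were without overlap in 3 (27.3%), a smaller share than the 64.9% over all genes.

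The 95% interval of the difference lay within -0.5 to 0.5 in 389 genes, which are steady on the scale as deposited, yet 362 of them were called lower after scaling to equal sums. The most abundant protein-coding ones were Pcbp1, an RNA-binding protein, with 63.9, 98.6 and 113 FPKM in late and 72.8, 87.2 and 122 in early embryos, Gm10226, Phf5a, a spliceosome protein, with 28.4, 43.6 and 49.4 in late and 39.7, 45.03 and 51.9 in early embryos, the proton pump gene Atp6v0c, the initiation factor gene Eif3i, the ubiquitin receptor gene Psmd4, Prdx5 and Hypk. Their differences were -0.13 to 0.13 as deposited and -0.68 to -0.97 after scaling to equal sums.

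The direction of change went with the level in the egg. Among the 3640 genes of the class present in both 2-cell stages that were also at FPKM 1 or more in all 3 eggs, 1373 were higher and 1471 lower (median -0.07), and after scaling to equal sums 866 higher and 2094 lower (median -0.72). Among the 932 such genes below FPKM 1 in all 3 eggs, 582 were higher and 73 lower (median 1.11), and after scaling to equal sums 446 higher and 170 lower (median 0.53). No test is given for the classes. Of the 1932 genes that rose by 2 or more, 537 were at FPKM 1 or more in all 3 eggs and 1147 below 1 in all 3, and of the 981 that fell by 2 or more 842 and 67. Over all 9319 tested genes the counts were 4822 and 3161. Of the 1932 genes 566 were below FPKM 1 in all 8 early embryos and could only rise, and 533 of them were also below 1 in all 3 eggs. Of the 981 genes 283 were below FPKM 1 in all 6 late embryos and could only fall.

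**Figure D5:**
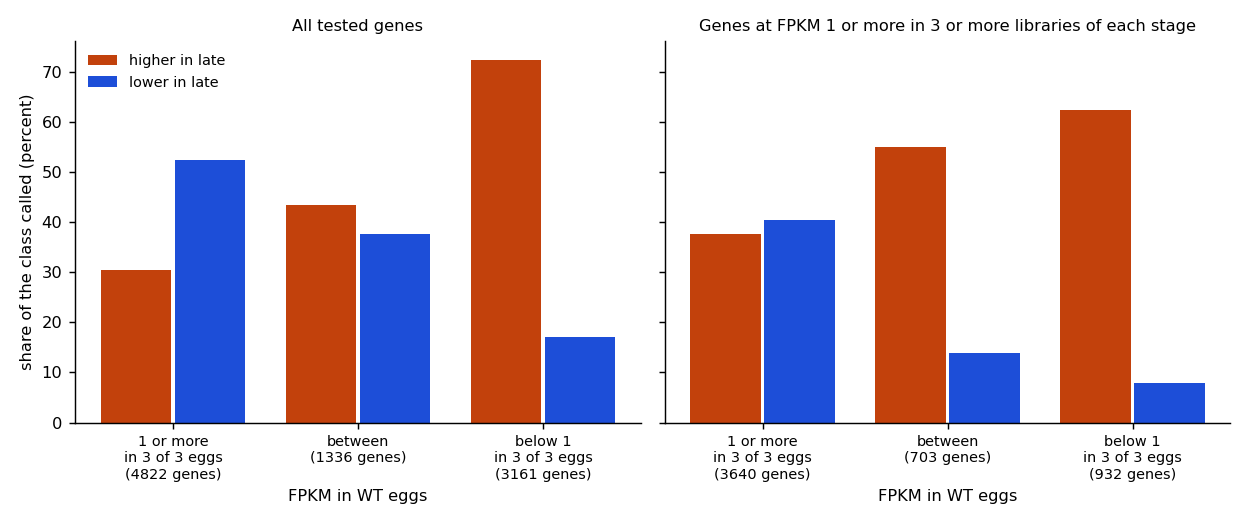
Percent of genes called higher (left bar of each pair) or lower (right bar) in WT late 2-cell embryos, by the level of the gene in the 3 WT eggs, for all 9319 tested genes (left panel) and for the 5275 genes that reached FPKM 1 in 3 or more late and early libraries (right panel). In both panels falls are more frequent than rises for genes held in all eggs, and rises more frequent than falls for genes below FPKM 1 in all eggs. The left panel includes genes that could pass the filter only through 1 stage.

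A small class was low in the egg, present in the early embryo and mostly lower again by the late stage. Of 22 genes below FPKM 1 in all 3 eggs and at 5 or more in all 8 early embryos, 14 were called lower in late embryos and 3 higher, and 9 fell by 2 or more, of which 2, Atp6v1g1 and Psg17, are protein-coding. Psg17, a pregnancy-specific glycoprotein gene named here after its values had been seen, averaged 0.243 ± 0.325 FPKM in late and 8.65 ± 2.23 in early embryos (SD, n = 6 and 8).

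By gene type, among the genes present in at least 3 libraries of each stage, 1464 of 3481 protein-coding genes were higher and 1167 lower (median 0.13), 587 of 1041 pseudogenes higher and 207 lower (median 1.092), 176 of 462 long non-coding genes higher and 176 lower, and 89 of 194 small non-coding genes higher and 44 lower. After scaling to equal sums 931 protein-coding genes were higher and 1800 lower (median -0.46), 467 pseudogenes higher and 330 lower (median 0.37), 107 long non-coding genes higher and 236 lower, and 66 small non-coding genes higher and 56 lower. Reads of a pseudogene can come from its parent gene. When tested genes were ranked by span and cut into 4 equal bins, the shortest bin (38 to 1697 bp) had 1282 of 2328 genes higher and 616 lower, and the longest bin (24156 to 515207 bp) 929 of 2327 higher and 1101 lower. After scaling to equal sums the shortest bin had 1073 higher and 798 lower and the longest 692 higher and 1376 lower. By chromosome, the share of genes higher ran from 37.96% on chromosome 12 to 53.3% on chromosome 11 among the autosomes and 50.99% on chromosome X.

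The embryos labelled Trp53 MZ-KO went through the same stages in libraries that the WT comparison does not use. The 6 MZ-KO late embryos were set against the 6 MZ-KO early embryos over the same 9319 genes, and 7514 were called (80.6%), 4278 higher and 3236 lower, with a median of 0.29. Rises were 56.9% of these calls as deposited and 44.1% of the 7592 calls after scaling to equal sums, where the median was -0.25. Without MZ-KO late embryos 1 and 6 the calls were 7368. Of the 7923 genes called in WT, 6794 (85.8%) were called in MZ-KO in the same direction and 72 in the opposite one. Of the 1932 genes that rose by 2 or more in WT 1856 were called higher in MZ-KO, and of the 981 that fell by 2 or more 957 were called lower. The authors' FPKM of Trp53 covers exons outside the deletion as well, so it does not check the MZ-KO labels. It was 1.48, 2.62 and 5.39 in MZ-KO late and 0.311, 0.856 and 1.10 in MZ-KO early embryos.

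The stage difference itself was called different between MZ-KO and WT embryos in 1974 genes (21.2%), with 1051 differences more positive and 923 more negative in MZ-KO. Without MZ-KO late embryos 1 and 6 the number was 1708. Of the 1974 genes 1215 were called in both genotypes in the same direction, and in 863 of the 1215 the stage difference was smaller in MZ-KO, over genes that WT libraries had chosen by their level. Of the 15 largest rises 5 were among the 1974 genes, Alppl2, Trim43b, Pramel7, Spic and Zfp707. Zfp707 rose by 4.21 in MZ-KO and 5.94 in WT (difference -1.73, adjusted p = 0.000594), and Trim43b by 5.64 in MZ-KO and 6.86 in WT. The difference of Spic (-1.01) was not called after scaling to equal sums (adjusted p = 0.0843) or without MZ-KO late embryos 1 and 6 (adjusted p = 0.0921). Of the chaperone list, Hspa8 rose by 1.20 in MZ-KO and 3.60 in WT (difference -2.40, adjusted p = 1e-06). Hspa8 had 4.20, 6.56 and 8.61 FPKM in MZ-KO late and 1.33, 2.13 and 3.10 in MZ-KO early embryos.

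Cdkn1a, which was not called in WT, rose by 3.45 in MZ-KO (difference 3.02, adjusted p = 0.000296), with 13.8, 26.5 and 36.8 FPKM in MZ-KO late and 0.666, 1.37 and 3.39 in MZ-KO early embryos. Trp53 differed by 1.06 in MZ-KO and -0.82 in WT, and Elf3 by 0.16 and -1.38. Among the 15 largest falls the stage difference was called different in 1, Nlrp4f, which fell by 3.94 in MZ-KO and 5.02 in WT. MZ-KO late embryos 1 and 6 were at 9.25 and 9.76 FPKM for Nlrp4f and the other MZ-KO late embryos at 1.76 to 3.20, and the call was lost without embryos 1 and 6 (0.50, adjusted p = 0.167) and after scaling to equal sums (adjusted p = 0.0579). The ribosomal and nucleolar lists had MZ-KO medians of 2.05, 2.60 and 1.70, and the subcortical maternal complex and zona lists -2.72 and -3.06.

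Markers of other cells were near 0 as a rule. Of 20 cumulus and granulosa cell markers 19 were below FPKM 1 in all 14 libraries and 5 listed at 0 in all, Ptx3, Inha, Inhbb, Nr5a1 and Pgr. The 1 tested marker, Amhr2, had 5.18, 7.09 and 11.6 FPKM in late and 0, 0.0410 and 0.768 in early embryos, and the list summed to 6.67 to 12.3 in late and 0.661 to 2.44 in early embryos. Of 16 sperm markers 13 were below FPKM 1 in all 14 libraries, and the tested ones were Prm1, with 8.82, 14.2 and 27.6 FPKM in late and 0.0140, 0.121 and 0.299 in early embryos, and Odf2, with 0.365, 1.30 and 1.602 in late and 2.28, 3.09 and 4.08 in early embryos. The list summed to 11.7 to 30.2 in late and 4.58 to 5.92 in early embryos. Of 20 blood and immune cell markers 16 were below FPKM 1 in all 14 libraries, with Hbb-bt and S100a8 among those at 0, while the alpha globin gene Hba-a1 had 4.71, 6.33 and 12.4 FPKM in late and 0, 0.735 and 4.21 in early embryos and Hba-a2 had 7.05, 8.18 and 12.4 in late and 0, 0.666 and 3.20 in early embryos. The other tested marker of this list, Ms4a1, went the other way (-2.18, adjusted p = 2.04e-08 by limma). It had 0.0880 to 0.673 FPKM in late, 3.08 to 9.49 in early embryos and 10.5 to 18.2 in eggs. That list summed to 13.6 to 22.7 in late and 5.23 to 11.9 in early embryos. The part of such cells in the differences was not tested. Of 10 genes of later lineages 8 were below FPKM 1 in all 14 libraries, and Fgf4, a growth factor of the inner cell mass, had 2.13, 3.49 and 4.61 FPKM in late and 0, 0 and 0.0570 in early embryos. Of the markers that define the egg and the 2-cell embryo, the oocyte growth factor gene Gdf9 was at 11.7 ± 5.25 FPKM in late and 70.2 ± 19.3 in early embryos (SD, n = 6 and 8), and the 2-cell gene Zfp352, which was not called, at 9.58 ± 5.93 in late and 7.53 ± 5.43 in early embryos.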

How the data were processed

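RNA of single mouse eggs and 2-cell embryos was amplified by SMART-seq, per the labels' protocols. TopHat2, DESeq, DESeq2 and the build mm10 are named in the submitters' processing notes. The authors deposited 1 table of FPKM per gene and library, and no counts were used. Low values were whole multiples of 1 read (within 0.1, at least 98.8% of them) when length was the genomic span, with the read total fitted to that length. With exon length and the same read total at most 22.6% were. No read total was fitted to exon length, so this is not a like comparison. Gene types and positions come from GENCODE M21, matched for 54495 of 54532 identifiers. The header spelling KO_2LC was read as late 2-cell MZ-KO, since its 6 columns give the deposited mean. 3 columns of single libraries were not used.

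Genes at FPKM 1 in 6 of the 14 WT 2-cell libraries were tested on log2(FPKM + 1), which understates changes of low genes, with limma 3.58.1 (trend, robust) in R 4.3.3 and Benjamini-Hochberg adjustment, late minus early. The MZ-KO comparison and the interaction used the same genes. Alternatives were other pseudocounts, filters, scalings and fits, and leaving out each embryo. Scaling to equal sums, the 20-read filter, leaving out early embryos 3 and 8 together, and leaving out MZ-KO late embryos 1 and 6 were chosen after seeing the data. On simulated data with 9319 genes the script was tested beforehand. Only a small part of those genes was changed, up and down alike. That test therefore does not cover a change in most genes or the unequal FPKM sums of the stages. The members and lists were chosen with earlier results of these data known. Named genes were the 15 largest called rises and falls among protein-coding genes of at least 500 bp, without a clone name and without overlap between the stages. Further named genes were up to 8 switching each way, the 8 most abundant steady genes, and up to 4 per list with up to 3 not called. The promoter set was narrowed after the first match (77.8% of genes) fell short of 80%. Some named genes are not reported here.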

Additional observations from a re-analysis of the deposited data

Results flagged for a closer look

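Single embryos stood apart by the Dixon ratio in 64 of 390 groups of late or early WT embryos checked, for the 193 named genes and 2 library totals, which is 16.4%. The cut-off stands for about 1 in 20 only with independent, normally distributed values. FPKM values are skewed and can lie at 0, and the genes share the same embryos, so 1 in 20 is no benchmark for this share. Of the 64, 41 were early embryo 3, the library described above as lying on the late side of its group. In WT early embryos, embryo 3 was highest, with its FPKM set against that of the next embryo, for Obox8 at 8.32 against 1.88, Alppl2 at 12.3 against 4.08, Mt1 at 55.1 against 7.65, Rpl41 at 88.2 against 12.97 and Spic at 3.42 against 0.418. The same held for Trim43a at 5.43 against 0.753, Obox6 at 5.80 against 1.73, Mt2 at 41.1 against 10.4, Znhit3 at 14.4 against 2.89 and Zfp707 at 2.11 against 1.01. Embryo 3 was also highest for Pramel6 at 0.283 against 0.0970, Timd2 at 0.300 against 0.127, Alpi at 0.240 against 0.0800, Prdx5 at 29.9 against 23.5 and Rplp0 at 8.01 against 5.66. Further genes with embryo 3 highest were Rps3 at 4.14 against 1.596, Nhp2 at 12.5 against 8.25, Mybbp1a at 0.723 against 0.262, Polr1c at 6.80 against 2.75 and Tdpoz5 at 23.7 against 8.54. It lay above the others too for Zscan4c at 79.98 against 26.4, Zscan4d at 67.5 against 20.8, H2afz at 11.7 against 5.25, Ccne1 at 6.93 against 2.58 and Xpa at 0.967 against 0.209. Likewise highest in embryo 3 were Ctsa at 0.792 against 0.340, Ctsl at 8.33 against 2.87, Mcl1 at 4.96 against 1.90, Sesn2 at 0.804 against 0.306 and Cdkn1a at 13.99 against 4.54. The last of these genes were Gpx1 at 70.9 against 18.7, Amhr2 at 0.768 against 0.0830, Hba-a1 at 4.21 against 1.98, Fgf4 at 0.0570 against 0 and Cdk2 at 2.87 against 1.64. Embryo 3 was lowest for Bmp15 at 377 against 556, Oas1e at 47.7 against 109.8, Zfp57 at 50.98 against 147, Hus1 at 4.09 against 7.56, Rfc3 at 2.47 against 8.25 and Pfdn4 at 3.39 against 7.05.

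In WT late embryos, 1 embryo was far above the next for Alppl2 in embryo 2 at 1046 against 878, Oas1c in embryo 1 at 3.83 against 1.89, Grwd1 in embryo 5 at 71.4 against 47.8, Pabpc1l in embryo 1 at 0.190 against 0.0700 and Duxf3 in embryo 2 at 0.0460 against 0. Also high in a single late embryo were Dppa2 in embryo 3 at 33.7 against 21.9, Cdc20 in embryo 3 at 427 against 312, Psma7 in embryo 6 at 10.7 against 5.85, Sesn2 in embryo 1 at 29.1 against 15.4 and Tyms in embryo 3 at 14.6 against 7.95. The same was seen for Setd2 in embryo 5 at 8.35 against 6.87, Eed in embryo 3 at 7.08 against 3.55, Supt4a in embryo 4 at 41.5 against 33.8 and Slc25a1 in embryo 1 at 2.22 against 0.605. A single late embryo was far below the next for Mphosph10 in embryo 6 at 4.97 against 7.92 and Snrnp27 in embryo 5 at 1.98 against 4.01. In WT early embryos other than embryo 3, a single high value stood out for Stard3nl in embryo 8 at 9.01 against 6.96, Pcbp1 in embryo 6 at 122 against 94.4, Eif3i in embryo 2 at 36.97 against 31.5 and Btg4 in embryo 2 at 128 against 98.2. So it did for Pramef12 in embryo 4 at 7.75 against 6.04, H1foo in embryo 8 at 76.8 against 48.3 and Cd9 in embryo 2 at 3.54 against 2.28.

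The late minus early difference was not the same in MZ-KO and WT embryos for 39 of the 193 named genes (20.2%), by the interaction term of the limma fit, against 21.2% of all tested genes. It was more positive in MZ-KO than in WT, with the log2 difference in MZ-KO and then in WT in brackets, for Nlrp4f (-3.94 and -5.02, difference 1.087), Prdx5 (0.86 and 0.11, difference 0.75), Hypk (0.79 and 0.13, difference 0.66), Polr2h (4.54 and 3.50, difference 1.04) and Lsm3 (-1.47 and -2.54, difference 1.06). More positive in MZ-KO as well were Elf3 (0.16 and -1.38, difference 1.54), Dnmt3l (-0.85 and -1.89, difference 1.04), Trp53 (1.06 and -0.82, difference 1.89), Psma7 (-1.090 and -2.41, difference 1.32) and Cdkn1a (3.45 and 0.43, difference 3.02). The rest of this kind were Hba-a1 (4.50 and 2.16, difference 2.34), Hba-a2 (4.95 and 2.41, difference 2.54), H1f0 (-0.67 and -2.41, difference 1.75), Hus1 (-1.30 and -2.36, difference 1.06) and Plk4 (-1.63 and -2.66, difference 1.03). It was more negative in MZ-KO, given in the same way, for Alppl2 (6.14 and 7.70, difference -1.56), Trim43b (5.64 and 6.86, difference -1.22), Pramel7 (4.64 and 6.80, difference -2.16), Spic (5.65 and 6.66, difference -1.01) and Zfp707 (4.21 and 5.94, difference -1.73). More negative in MZ-KO as well were Ctsc (4.83 and 5.67, difference -0.84), Pramel4 (2.72 and 4.28, difference -1.56), Alpi (2.50 and 4.26, difference -1.76), Gm10226 (-2.01 and -0.13, difference -1.87) and Rpl37a (3.42 and 4.32, difference -0.89). To these came Mybbp1a (2.99 and 3.97, difference -0.98), Gtf2b (-3.47 and -2.15, difference -1.32), Omt2b (-1.26 and -0.26, difference -0.996), Omt2a (-1.10 and -0.19, difference -0.91) and Ythdf2 (2.18 and 2.75, difference -0.57). Further genes were H2afx (0.51 and 2.10, difference -1.59), Gadd45a (2.15 and 3.47, difference -1.32), Cdk1 (2.96 and 3.87, difference -0.91), Cdc20 (1.47 and 3.09, difference -1.61) and Hspa8 (1.20 and 3.60, difference -2.40). The rest were Ctsb (3.84 and 4.99, difference -1.15), Tigar (1.94 and 3.05, difference -1.11), Rbm8a (2.77 and 3.71, difference -0.94) and Exosc6 (2.49 and 3.94, difference -1.45). The adjusted p-values of the 39 ran from 1e-06 for Hspa8 to 0.0478 for Nlrp4f.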

How the results depend on the processing

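The number of called genes moved with the filter. With no filter 15824 of 35462 genes were called (8111 higher, 7713 lower), with FPKM 5 as the minimum 3554 of 3990 (2035 higher, 1519 lower), and with a 20-read filter, chosen after seeing the data, 13723 of 17631 (6762 higher, 6961 lower). The other settings kept the counts within 1.5 times the main ones, and leaving out each embryo gave 7830 to 7936 calls (4302 to 4364 higher, 3515 to 3600 lower). Of the 193 named genes, 5 that were not called as deposited took the opposite sign and were called under quantile normalization and under scaling to equal sums. These were Pcbp1 (-0.83 and -0.81), Atp6v0c (-0.76 and -0.81), Prdx5 (-0.61 and -0.71), Hypk (-0.58 and -0.68) and Dppa3 (-0.47 and -0.53). A further 11 named genes, not called as deposited, kept their sign and were called lower under each of these scalings. They were Phf5a, Eif3i, Psmd4, Gm10226, Rpl15, Rps27l, Omt2b, Omt2a, Hsp90aa1, Mphosph10 and Rrp1b. The call of Ybx1 was lost under quantile normalization (0.30). The call of Trp53 was lost with no filter (adjusted p = 0.0839). Noc4l became called without late embryo 4 (0.49) or early embryo 8 (0.46). Of the 39 named genes whose stage difference was called different in MZ-KO, 35 kept the call after scaling to equal sums, 39 without early embryo 3 and 32 without MZ-KO late embryos 1 and 6, settings chosen after seeing the data. The cause of these changes was not tested. No paired analysis was possible because the columns carry no replicate numbers shared between the stages. Low genes are limited by depth, since 1 read is worth more in the shallowest early library, and the number of embryos limits the precision elsewhere.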
